A study of Mus musculus with 10 samples.

Results

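The catalytic core of the proteasome exists in a constitutive and an immune form, and 8 genes that set them apart were followed across 10 mouse melanomas. Psmb8, Psmb9 and Psmb10 encode the immunosubunits, Psmb5, Psmb6 and Psmb7 encode the constitutive subunits whose places they take, and Psme1 and Psme2 encode the alpha and beta chains of the proteasome activator PA28. The members were named by symbol for their known roles and found through their mouse Ensembl identifiers, 8 of the 52636 genes of the count table. They were chosen with earlier results of these data known. All 8 passed the filter on low counts that kept 17286 genes for testing.

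The study sequenced polyadenylated RNA of bulk tumours from mice with BrafCA, a Braf allele that Cre recombinase switches to its oncogenic form, and Cdkn2af/f, a floxed tumour suppressor locus. All 10 tumours carried both alleles. The 4 control tumours had the genotype BrafCA;Cdkn2af/f, and the other 6 tumours carried in addition Arf6Q67L, which encodes a constitutively active mutant of the GTPase ARF6. The series' stated aim was to compare expression between these genotypes. The labels give no age, treatment, batch or Cre driver and do not say whether each tumour came from its own mouse, so p-values measure the spread between these tumours.

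The proteasome cuts proteins marked with ubiquitin into peptides, and some of those peptides are carried into the endoplasmic reticulum and shown on MHC class I molecules. Interferon-gamma induces the 3 immunosubunits, which are built into newly made 20S core particles in place of the constitutive ones and shift cleavage towards peptides that MHC class I binds well. The same cytokine induces PA28, a ring that caps the core particle and opens its gate. Cells of haematopoietic origin make the immune form without induction, and other cells mainly after cytokine exposure.

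Libraries held 28635414 to 40869091 counts. On the first principal component of all tested genes, 25.8% of the variance, control 4 (score 100.5) and control 2 (52.6) lay apart from the other 8 tumours, which were between -53.3 and 12.3. Many fold changes, pair ratios and percentages that moved by more than 1.5 times without these 2 libraries are given both ways, an alternative added after the values were seen. Not all are, so a value given alone is not thereby shown to be stable. Of the 7 melanocyte markers listed, Tyr and Dct had 0 counts in all 10 tumours, which allows up to 3 counts or 0.0761 to 0.106 CPM (counts scaled to library size with TMM factors). Pmel did not exceed 0.94 CPM, and Mitf lay between 11.1 and 26.1 CPM, so the labelled tumour type was not backed by pigment genes. Xist and Y-linked genes were high in separate tumours, which gave 4 female tumours (Arf6Q67L 1, 3 and 4, control 1) and 6 male ones.

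Promoter windows, from 250 bases before to 50 after each start, were read from RefSeq on GRCm38.p6, which held 7 of the 8 members but not Psmb7. Those of Psmb8 and Psmb9 are shown because these genes had the lowest values in the Arf6Q67L tumours relative to controls. That of Psme1 is shown as the PA28 gene with a motif match, and that of Psmb5 as the constitutive gene whose level hardly moved. Capitals mark motif matches, and the letters of each motif follow.
Psmb8, chr17:34197945-34198244, plus strand: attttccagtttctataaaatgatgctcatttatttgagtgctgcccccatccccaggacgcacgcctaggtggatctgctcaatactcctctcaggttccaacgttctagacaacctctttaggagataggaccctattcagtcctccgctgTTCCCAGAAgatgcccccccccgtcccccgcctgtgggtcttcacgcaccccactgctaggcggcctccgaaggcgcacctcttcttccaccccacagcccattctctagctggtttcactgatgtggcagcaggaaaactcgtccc
Psmb9, chr17:34187281-34187580, minus strand: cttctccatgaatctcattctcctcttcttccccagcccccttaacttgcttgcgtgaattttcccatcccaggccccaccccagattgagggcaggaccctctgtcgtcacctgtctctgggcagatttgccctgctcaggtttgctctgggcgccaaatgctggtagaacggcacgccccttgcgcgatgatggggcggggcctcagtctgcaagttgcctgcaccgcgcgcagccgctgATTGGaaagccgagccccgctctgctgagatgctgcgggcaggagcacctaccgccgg
Psme1, chr14:55578244-55578543, plus strand: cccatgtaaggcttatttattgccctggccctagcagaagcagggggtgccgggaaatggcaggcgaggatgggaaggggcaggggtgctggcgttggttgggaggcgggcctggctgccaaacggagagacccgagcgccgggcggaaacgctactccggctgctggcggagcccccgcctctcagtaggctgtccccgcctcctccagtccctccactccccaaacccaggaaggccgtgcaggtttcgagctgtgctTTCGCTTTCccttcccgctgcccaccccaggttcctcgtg
Psmb5, chr14:54617946-54618245, minus strand: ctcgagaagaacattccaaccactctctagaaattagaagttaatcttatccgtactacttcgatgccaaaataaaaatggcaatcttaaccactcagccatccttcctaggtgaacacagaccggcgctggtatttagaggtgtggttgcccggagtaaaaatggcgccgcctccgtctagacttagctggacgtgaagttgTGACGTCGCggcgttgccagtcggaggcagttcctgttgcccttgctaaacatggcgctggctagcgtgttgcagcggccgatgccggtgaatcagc
The 4 motifs, searched on both strands, were the GAS element TTCNNNGAA, the repeat GAAANNGAA bound by interferon regulatory factors, the antioxidant element core TGACNNNGC and the CCAAT box. The Psmb8 window held a GAS match from -97 to -89 relative to the RefSeq start, which lies 175 bases from the nearest GENCODE start of the gene. The Psme1 window held an interferon regulatory factor repeat on its minus strand from 10 to 18. Antioxidant element matches stood at -47 to -39 in Psmb5 and at -9 to -1 in Psmb6. In Psmb9 the CCAAT box at -8 to -4, on the strand opposite to the gene, was the only match, and the windows of Psmb10 and Psme2 held none of the 4. These letters are common, since among 32851 promoter windows of this length 8.30% held the GAS element, 8.56% the repeat, 12.4% the antioxidant element and 37.4% a CCAAT box. A match is a description of letters and not a measured binding site. Only these exact letters in these windows were searched, so a missing match does not show that a site is absent.

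Expression of the 3 immunosubunits and of both PA28 genes was lower on average in Arf6Q67L tumours than in controls, by 1.99-fold to 4.96-fold, while the constitutive subunits lay within 1.17-fold of the control level. No member passed edgeR's quasi-likelihood test after Benjamini-Hochberg adjustment over all genes (0 of 8, against 0% of the 17286 genes tested, the smallest adjusted p being 0.146). At an unadjusted edgeR p under 0.05, 6 of the 8 members were lower in Arf6Q67L tumours, where 7.05% of all genes were lower and 4.65% higher. DESeq2 called 4 of the 8 members lower at an adjusted p under 0.05, where it called 1.49% of genes lower and 1.01% higher. The median log2 fold change of Arf6Q67L over control was -1.07 over the members and 0.00 over all genes. Because earlier results were known when the members were chosen, these counts and the p-values below do not test a set fixed beforehand.

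**Figure D1:**
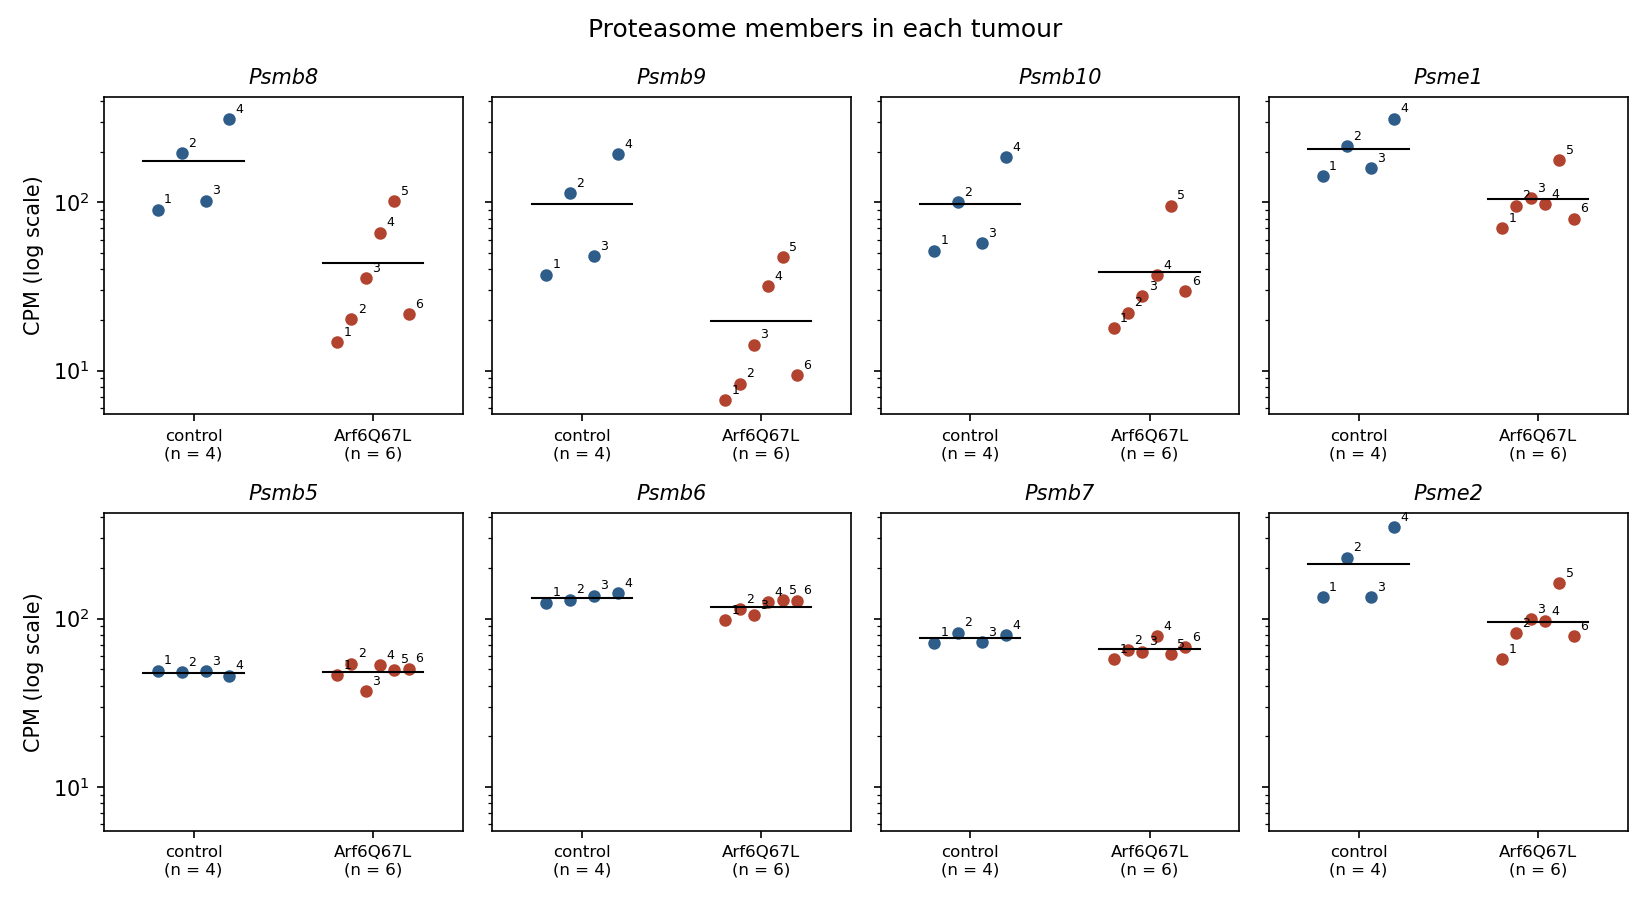
CPM of each member on a log axis, 1 point per tumour labelled with its number, for 4 control and 6 Arf6Q67L tumours. Bars mark group means. For the immunosubunits and PA28, 5 of the 6 Arf6Q67L tumours sit below all controls and Arf6Q67L tumour 5 sits among them, while the constitutive subunits in the lower left panels stay within a narrow band.

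Psmb8 (ENSMUSG00000024338, chromosome 17, 34197721 to 34201454, plus strand, GRCm38) encodes beta5i, the immunosubunit with chymotrypsin-like activity. Its level was 90.5, 195, 102 and 313 CPM in controls 1 to 4. The Arf6Q67L tumours ran from 14.8 through a median of 28.6 to 102 CPM. Arf6Q67L tumour 5 was the highest of its group and lay between controls 1 and 3, and the other 5 were below every control. The log2 fold change was -2.02 with a standard error (SE) of 0.58, and Psmb8 missed the threshold with edgeR (adjusted p = 0.283) and passed it with DESeq2 (adjusted p = 0.0235).

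Psmb9 (ENSMUSG00000096727, chromosome 17, 34181987 to 34187764, minus strand) encodes beta1i, which replaces a subunit that cuts after acidic residues. Controls 1 to 4 had 37.2, 113, 47.7 and 193 CPM. Across the Arf6Q67L tumours the lowest value was 6.71, the median 11.9 and the highest 47.3 CPM, from 248 counts in Arf6Q67L tumour 1 upwards. The groups overlapped through Arf6Q67L tumour 5 alone, as they did for Psmb8. Psmb9 had the most negative fold change of the members, -2.31 on the log2 scale (SE 0.65, edgeR adjusted p = 0.283, DESeq2 adjusted p = 0.0179).

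Psmb10 (ENSMUSG00000031897, chromosome 8, 105935735 to 105938444, minus strand) encodes beta2i and lies outside the MHC. It reached 51.6, 99.9, 56.9 and 185 CPM in the controls. In Arf6Q67L tumours it had a minimum of 17.9, a median of 28.7 and a maximum of 95.7 CPM. The maximum, in tumour 5, exceeded controls 1 and 3, and the next Arf6Q67L value, 36.9 CPM in tumour 4, was below all controls. Its log2 fold change of -1.36 (SE 0.51) passed neither test (edgeR adjusted p = 0.368, DESeq2 adjusted p = 0.144).

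The immunosubunit differences were smaller without the controls that stood apart. Controls 2 and 4 were the 2 highest tumours for each of the 3 genes, so leaving them out lowers the control mean by construction. Without both, the log2 fold change was -1.16 for Psmb8, -1.11 for Psmb9 and -0.50 for Psmb10, with edgeR adjusted p-values from 0.809 to 0.904 and unadjusted ones from 0.117 to 0.405. Without control 4 alone Psmb10 was at -0.85. Leaving out Arf6Q67L tumour 5 instead moved Psmb10 to -1.87.

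Psmb5 (ENSMUSG00000022193, chromosome 14, 54614119 to 54618022, minus strand), the constitutive chymotrypsin-like subunit that Psmb8 replaces, had 49.1, 47.9, 48.5 and 45.8 CPM in controls. Arf6Q67L tumours spread around those values, from 37.0 through a median of 50.1 to 54.1 CPM. Psmb5 was the member with the smallest fold change, 0.02 on the log2 scale (SE 0.11, edgeR adjusted p = 0.971). Its sign was negative when controls 2 and 4 were left out (-0.01).

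Psmb6 (ENSMUSG00000018286, chromosome 11, 70525367 to 70527858, plus strand), which cuts after acidic residues, had 124, 130, 137 and 141 CPM in controls and 97.7 to 129 CPM, median 120, in Arf6Q67L tumours. Only 3 Arf6Q67L tumours were below every control (log2 fold change -0.19, SE 0.10, edgeR adjusted p = 0.479). Psmb7 (ENSMUSG00000026750, chromosome 2, 38588036 to 38644087, minus strand), the trypsin-like subunit, had 72.0, 82.6, 72.2 and 79.6 CPM in controls and 57.2 to 78.5 CPM, median 64.2, in Arf6Q67L tumours. For Psmb7 5 of 6 Arf6Q67L tumours were below every control and tumour 4 was not, with a log2 fold change of -0.23 (SE 0.10, unadjusted p = 0.0408, edgeR adjusted p = 0.411).

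Both sets also differed in how far they varied. From the lowest to the highest of the 10 tumours, log2 CPM spanned 4.40 for Psmb8, 4.83 for Psmb9 and 3.37 for Psmb10. The same span was 0.55 for Psmb5, 0.53 for Psmb6 and 0.53 for Psmb7. Averaged per tumour, the 3 constitutive subunits covered 0.36 log2 units and the 3 immunosubunits 4.20. Within the Arf6Q67L group alone Psmb8 spanned 2.78 log2 units and within the controls 1.79, so tumours of 1 genotype differed several-fold among themselves.

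The catalytic pairs were then compared within each tumour, as the log2 ratio of an immunosubunit's CPM to that of the constitutive subunit it replaces. A ratio within a library does not depend on library scaling, and differences between groups were tested with an exact two-sided permutation test, which runs through all 210 ways to split 10 tumours into 6 and 4 and whose smallest possible p is 0.00476. Since CPM is not corrected for gene length, these ratios compare tumours and not the 2 genes.

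For Psmb8 to Psmb5 the log2 ratio was 0.88, 2.03, 1.08 and 2.77 in controls. In Arf6Q67L tumours it lay between -1.64 and 1.03. Only Arf6Q67L tumour 5 was above the lowest control. The mean was -0.49 ± 1.08 (SD, n = 6) against 1.69 ± 0.88 (SD, n = 4), a difference of -2.18 or 4.54-fold (exact permutation p = 0.0190, 0.0286 adjusted over the 3 pairs).

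The Psmb9 to Psmb6 log2 ratio was -1.74, -0.20, -1.52 and 0.45 in controls and -3.85 to -1.44 in Arf6Q67L tumours. Again 5 of 6 Arf6Q67L tumours were below every control. The mean was -2.94 ± 1.03 (SD, n = 6) against -0.75 ± 1.05 (SD, n = 4), a difference of -2.19 or 4.57-fold (exact permutation p = 0.0190, adjusted p = 0.0286). Without Arf6Q67L tumour 3 the difference was -2.21 and no longer passed even unadjusted (exact permutation p = 0.0556). With single tumours left out, unadjusted exact permutation p ran from 0.0159 to 0.0556 for this pair. For Psmb8 to Psmb5 it ran from 0.0159 to 0.0357. These values were not adjusted over the 3 pairs, so they do not show that the adjusted results hold without single tumours.

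Psmb10 to Psmb7 had log2 ratios of -0.48, 0.27, -0.34 and 1.22 in controls and of -1.67 to 0.64 in Arf6Q67L tumours. Arf6Q67L tumour 5, at 0.64, was above 3 of the 4 controls, while the next tumour of its group was at -1.09. The difference of -1.18 (2.26-fold) missed the threshold (exact permutation p = 0.0571). By unadjusted p it passed without Arf6Q67L tumour 5 (-1.51, exact permutation p = 0.00794) and without control 1 (-1.39, exact permutation p = 0.0476). Neither value was adjusted over the 3 pairs.

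Without controls 2 and 4 no pair passed. The differences were -1.47 for Psmb8 to Psmb5, -1.31 for Psmb9 to Psmb6 and -0.60 for Psmb10 to Psmb7 (exact permutation p = 0.179, 0.214 and 0.464, the smallest possible being 0.0357). In the 6 male tumours alone, 3 of each genotype, they were -2.49, -2.56 and -1.08, where an exact permutation test cannot go below 0.1 and gave p = 0.1, 0.2 and 0.3.

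**Figure D2:**
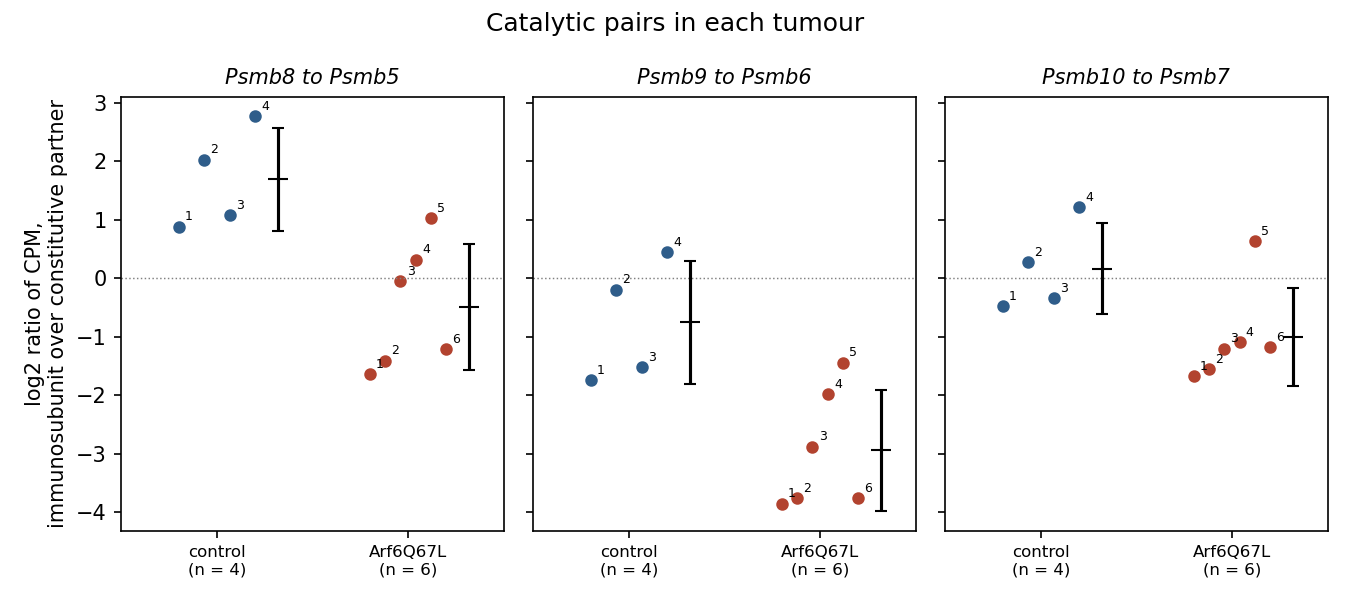
Log2 ratio of CPM of each immunosubunit to its constitutive partner, 1 numbered point per tumour, for 4 controls and 6 Arf6Q67L tumours. Vertical bars give the group mean ± SD. For Psmb8 to Psmb5 the mean was 1.69 in controls and -0.49 in Arf6Q67L tumours, and Arf6Q67L tumour 5 is the highest of its group in all 3 panels.

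To set both forms on 1 scale, counts were divided by the length of all exons of a gene joined together, and the immunosubunit was expressed as a percentage of its pair. Psmb8 made up 32.9% to 64.5% of the Psmb8 and Psmb5 signal in controls (46.4% ± 14.7, SD, n = 4) and 7.86% to 35.2% in Arf6Q67L tumours (18.0% ± 10.9, SD, n = 6). Psmb9 made up 25.1% ± 13.3 of its pair in controls and 7.41% ± 5.16 in Arf6Q67L tumours, and Psmb10 68.4% ± 10.6 and 49.5% ± 13.4. In all 3 pairs the ranges of the groups overlapped through Arf6Q67L tumour 5. Over controls 1 and 3 alone the mean control percentages were 34.4% for Psmb8, 14.2% for Psmb9 and 60.1% for Psmb10.

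The percentages depend on the length used, and the direction does not. With the length of the principal transcript (APPRIS) in place of all exons, Psmb8 was at 63.2% ± 13.4 in controls and 30.0% ± 15.3 in Arf6Q67L tumours. Psmb10 was then at 49.7% ± 13.0 and 31.3% ± 13.4. Psmb9 stayed the minor form in both groups, at 27.7% ± 14.1 and 8.42% ± 5.79.

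Levels of the 8 genes could be ordered on the same length-corrected scale, CPM per kilobase of principal transcript. In controls the order was Psme2 (220 ± 106), Psme1 (187 ± 69.2), Psmb6 (167 ± 9.41), Psmb8 (108 ± 63.3), Psmb10 (75.1 ± 47.1), Psmb9 (72.3 ± 53.0), Psmb7 (66.0 ± 4.61) and Psmb5 (53.2 ± 1.60). Of those neighbours only Psmb7 and Psmb5 differed by more than the larger of their SDs. In Arf6Q67L tumours the order was Psmb6 (146 ± 16.3), Psme2 (99.8 ± 37.1), Psme1 (93.8 ± 34.2), Psmb7 (56.5 ± 6.26), Psmb5 (53.8 ± 6.92), Psmb10 (29.2 ± 22.0), Psmb8 (26.6 ± 20.9) and Psmb9 (14.6 ± 12.1). There Psmb6 and Psme2, Psme1 and Psmb7, and Psmb5 and Psmb10 differed by more than the larger SD. By group mean the 3 immunosubunits took the last 3 places. In Arf6Q67L tumour 5 alone, Psmb10 (73.0) and Psmb8 (62.5) were above Psmb5 (55.4) and Psmb7 (53.0).

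The PA28 genes followed the immunosubunits with smaller differences. Psme1 (ENSMUSG00000022216, chromosome 14, 55578123 to 55581529, plus strand), the alpha chain, had 144, 216, 159 and 314 CPM in controls and 69.9 to 177 CPM, median 96.4, in Arf6Q67L tumours. Psme2 (ENSMUSG00000079197, chromosome 14, 55587441 to 55591113, minus strand), the beta chain, had 134, 230, 134 and 349 CPM in controls and 57.7 to 162 CPM, median 89.2, in Arf6Q67L tumours. In both genes Arf6Q67L tumour 5 exceeded controls 1 and 3, and the other 5 Arf6Q67L tumours were below every control.

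The log2 fold change was -0.996 (SE 0.29) for Psme1 and -1.14 (SE 0.33) for Psme2. Neither passed edgeR (both adjusted p = 0.283), and both passed DESeq2 (adjusted p = 0.0491 and 0.0481). Without controls 2 and 4 the values were -0.54 and -0.48. The ratio of the chains hardly moved, since the log2 ratio of Psme1 to Psme2 stayed between -0.15 and 0.28 over the 10 tumours.

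The immunosubunit and PA28 genes kept nearly the same order of tumours. Over the 10 tumours, whose labels give the same library protocol and no batch, Pearson's r of log2 CPM was 0.996 between Psmb8 and Psmb9 and 0.990 between Psme1 and Psme2. The lowest r among the immunosubunits and PA28 genes was 0.954, between Psmb9 and Psme1. Within the 6 Arf6Q67L tumours the Psmb8 to Psmb9 value was 0.997 and the Psmb9 to Psme1 value 0.837. Over the 10 tumours Psmb5 had an r between -0.09 and 0.01 with each of those 5 genes, Psmb6 between 0.727 and 0.799 and Psmb7 between 0.616 and 0.761. Within the 6 Arf6Q67L tumours these ran from 0.01 to 0.17 for Psmb5, 0.502 to 0.709 for Psmb6 and -0.007 to 0.392 for Psmb7.

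The ratio between 2 immunosubunits was not constant in every case. The log2 ratio of Psmb8 to Psmb9 stayed between 0.70 and 1.32. That of Psmb10 to Psmb9 was -0.18 to 0.47 in controls and 0.21 to 1.65 in Arf6Q67L tumours, with means of 0.12 ± 0.30 (SD, n = 4) and 1.10 ± 0.51 (SD, n = 6). In 5 of the 6 Arf6Q67L tumours, all but tumour 4, this ratio was above every control, and the difference was not tested.

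The other subunits of the 26S proteasome were counted next. Of the 11 other 20S subunits, the alpha ring and the structural beta subunits, 11 were lower on average in Arf6Q67L tumours, with log2 fold changes from -0.41 to -0.10 around a median of -0.24, where 50.3% of all genes had negative values. DESeq2 called 0 of the 11 lower, against 1.49% of all genes. At an unadjusted edgeR p under 0.05, 2 of the 11 were lower, against 7.05% of all genes. These were Psma4 (-0.41, SE 0.13, unadjusted p = 0.0094) and Psma7 (-0.28, SE 0.11, unadjusted p = 0.0297), both of the alpha ring that gates the core. With controls 2 and 4 left out, the medians of the alpha ring and of the structural beta subunits were both -0.10, Psma7 was at -0.17, and 0 of either list had an unadjusted edgeR p under 0.05. Among structural beta subunits the lowest p-values belonged to Psmb2 (-0.30, SE 0.15) and Psmb3 (-0.24, SE 0.14).

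The 19S regulatory particle, which recognises and unfolds substrates, had 12 of 19 genes negative with a median of -0.03, and 0 of 19 had an unadjusted edgeR p under 0.05. In its base Psmd1 (0.24, SE 0.17) and Psmc2 (-0.12, SE 0.10), and in its lid Psmd8 (0.19, SE 0.09) and Sem1 (-0.35, SE 0.17), had the lowest p-values. Over all 30 other 26S subunits the median log2 fold change was -0.08, the range was -0.41 to 0.24, and 23 were negative. The log2 fold changes of the immunosubunits, -2.31 to -1.36, and of PA28, -1.14 and -0.996, lay outside that range.

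**Figure D3:**
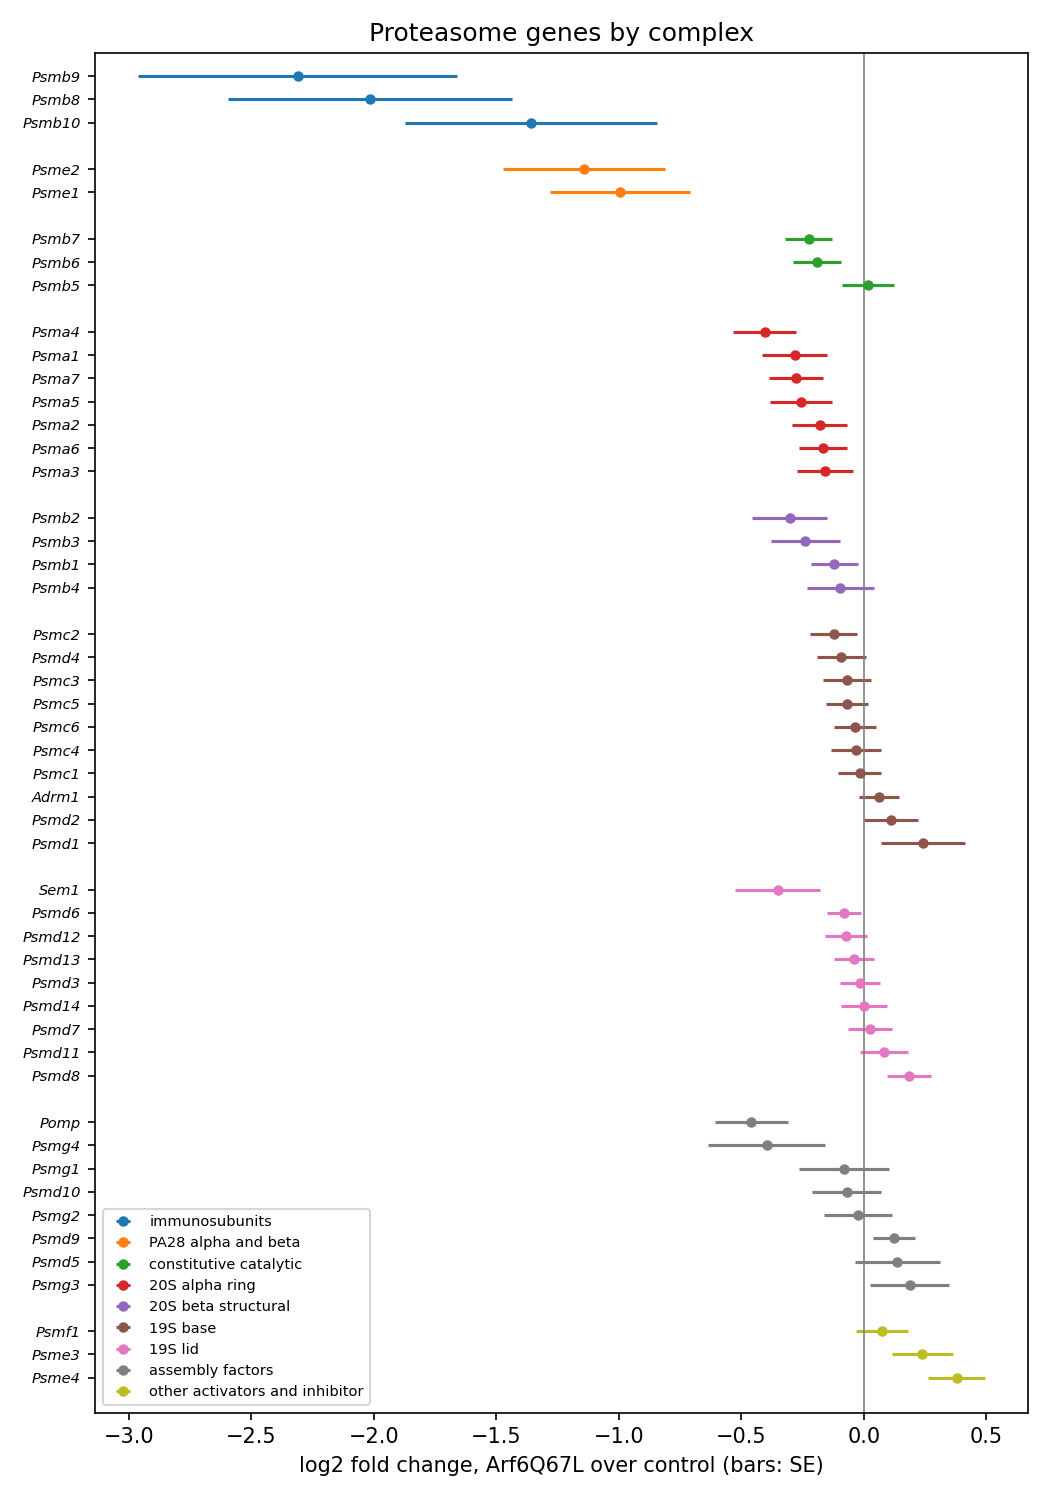
Log2 fold change of Arf6Q67L over control with SE for each proteasome gene, grouped by complex. The immunosubunits lie between -2.31 and -1.36 and PA28 alpha and beta at -0.996 and -1.14, while the 30 other 26S subunits lie between -0.41 and 0.24.

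Assembly factors were split, with 5 of the 8 tested genes negative and a median of -0.05. Pomp, the chaperone that matures the beta ring and is itself known to respond to interferon-gamma, had 132, 170, 147 and 176 CPM in controls and 91.5 to 155 CPM, median 108, in Arf6Q67L tumours. Arf6Q67L tumour 5 was again the only one not below every control. Its log2 fold change was -0.46 (SE 0.15, unadjusted p = 0.0107, edgeR adjusted p = 0.319), and that of the chaperone subunit gene Psmg4 was -0.40 (SE 0.24). These were -0.29 and -0.04 without controls 2 and 4.

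Of the activators outside PA28 alpha and beta, 1 was called higher, by DESeq2 alone. Psme4, which encodes the activator PA200, had 203, 225, 189 and 184 CPM in controls and 215 to 312 CPM, median 255, in Arf6Q67L tumours, and 5 of 6 Arf6Q67L tumours were above every control. Its log2 fold change was 0.38 (SE 0.12, edgeR adjusted p = 0.299), and DESeq2 called it higher (adjusted p = 0.0490). Psme3, the nuclear PA28 gamma, was at 0.24 (SE 0.12, DESeq2 adjusted p = 0.414) and the inhibitor Psmf1 at 0.07 (SE 0.10), neither called by edgeR or DESeq2. The transcription factors Nfe2l1 and Nfe2l2, which drive constitutive proteasome genes, and the Nfe2l1-processing enzymes Ddi2 and Ngly1 were 4 of 4 positive with a median of 0.10, and 0 of 4 had an unadjusted edgeR p under 0.05. Ngly1 was at 0.19 (SE 0.09) and Ddi2 at 0.10 (SE 0.10).

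Tissue-restricted subunits were near the detection limit. Psmb11, the thymus form of the beta5 subunit, did not exceed 0.0827 CPM and was not tested. Psma8, the testis form of an alpha subunit, was at 0.388 to 0.671 CPM in controls and 0.0858 to 0.386 CPM in Arf6Q67L tumours, 2 groups that did not overlap (log2 fold change -0.77, SE 0.36, edgeR adjusted p = 0.446). Groups did not overlap in the lower direction for 1.28% of all genes and in the higher direction for 1.15%, and for 0 of the 8 members.

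Genes that act upstream and downstream of the immunoproteasome were read from 2 gene lists, chosen with earlier results of these data known. In the interferon-gamma axis 7 of 7 genes had negative log2 fold changes (median -0.42), against 50.3% of all genes. At an unadjusted edgeR p under 0.05, 3 were lower (7.05% of all genes), and DESeq2 called 2 lower (1.49%). Without controls 2 and 4, 5 of the 7 were negative (median -0.32) and 0 had such a p. Nlrc5, the transactivator of MHC class I genes, had 112, 243, 147 and 350 CPM in controls and 17.0 to 89.2 CPM, median 42.7, in Arf6Q67L tumours. Its groups did not overlap, with a log2 fold change of -2.11 (SE 0.57, edgeR adjusted p = 0.273, DESeq2 adjusted p = 0.0143). It was -1.39 (SE 0.67) without controls 2 and 4.

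Irf1, a factor that binds immunosubunit promoters, was at -1.60 (SE 0.49) and was called by DESeq2 (adjusted p = 0.0487) and not by edgeR (adjusted p = 0.299). Its groups overlapped through Arf6Q67L tumour 5, and without controls 2 and 4 it was at -0.83 (SE 0.54). Ifng itself was scarce, at 0.761, 4.81, 0.705 and 9.63 CPM in controls and 0.0271 to 1.64 CPM, median 0.228, in Arf6Q67L tumours. Its log2 fold change was -2.75 (SE 1.09, edgeR adjusted p = 0.386), and it was highest in controls 2 and 4, the tumours highest for the immunosubunits. Without those 2 controls the Ifng value was -0.32 (SE 1.25).

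Along the class I peptide route 7 of 8 genes were negative (median -1.01), against 50.3% of all genes. At an unadjusted edgeR p under 0.05, 5 were lower (7.05% of all genes), and DESeq2 called 4 lower (1.49%). The median was -0.49 without controls 2 and 4, with 7 of 8 negative and 1 at such a p. B2m, the light chain of MHC class I, had 1843, 2766, 2298 and 4198 CPM in controls and 478 to 1381 CPM, median 912, in Arf6Q67L tumours. These groups did not overlap (log2 fold change -1.61, SE 0.32, edgeR adjusted p = 0.233, DESeq2 adjusted p = 0.00087). Tap1, a subunit of the peptide transporter, was at -1.96 (SE 0.52, edgeR adjusted p = 0.273, DESeq2 adjusted p = 0.0148) and had values below every control in 5 of 6 Arf6Q67L tumours. Without controls 2 and 4 the values were -1.18 (SE 0.36) for B2m and -1.13 (SE 0.58) for Tap1.

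Most leukocyte, T cell and macrophage markers had lower means in Arf6Q67L tumours, 0 of them passed edgeR after adjustment, and their part in the result was not tested. In bulk tumours fewer cells of a type and less RNA per cell cannot be told apart. Of 5 leukocyte markers 5 were negative, and their summed level was 541 to 1695 CPM in controls and 372 to 788 CPM in Arf6Q67L tumours, with controls 2 and 4 at 1117 and 1695. Ptprc, the pan-leukocyte surface marker, was at 159, 279, 106 and 425 CPM in controls and 76.3 to 200 CPM in Arf6Q67L tumours (log2 fold change -0.94, SE 0.37, edgeR adjusted p = 0.382). The Ptprc value was -0.06 (SE 0.32) without controls 2 and 4.

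Of 7 T cell markers 7 were negative and summed to 26.9 to 287 CPM in controls and 13.3 to 79.0 CPM in Arf6Q67L tumours. Among 8 macrophage markers 7 were negative, with sums of 1025 to 3204 and 753 to 1524 CPM, and Mertk alone was higher with groups that did not overlap (0.73, SE 0.21). Dendritic cell markers were negative in 4 of 5 (sums 46.4 to 156 and 34.8 to 60.9 CPM), NK cell markers in 2 of 5 (21.6 to 133 and 4.44 to 86.9 CPM) and the 1 tested of 4 B cell markers was negative (1.59 to 18.2 and 1.19 to 7.61 CPM). Endothelial markers were negative in 4 of 4 (102 to 253 and 56.5 to 247 CPM) and fibroblast markers in 2 of 4 (2779 to 6077 and 4242 to 6446 CPM). When controls 2 and 4 were left out, the markers with negative values were 4 of 5 for leukocytes (median -0.09), 6 of 8 for macrophages (median -0.04), 2 of 5 for dendritic cells (median 0.06), 0 of 7 for T cells (median 0.47) and 0 of 5 for NK cells (median 1.11). Endothelial markers stayed negative in 4 of 4 without these controls, with a median of -0.87 against -0.74 with all controls. Of these, 2 then had an unadjusted edgeR p under 0.05. Fibroblast markers were negative in 2 of 4 (median -0.03). Melanocyte markers summed to 14.0 to 21.3 CPM in controls and 12.9 to 26.8 CPM in Arf6Q67L tumours.

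**Figure D4:**
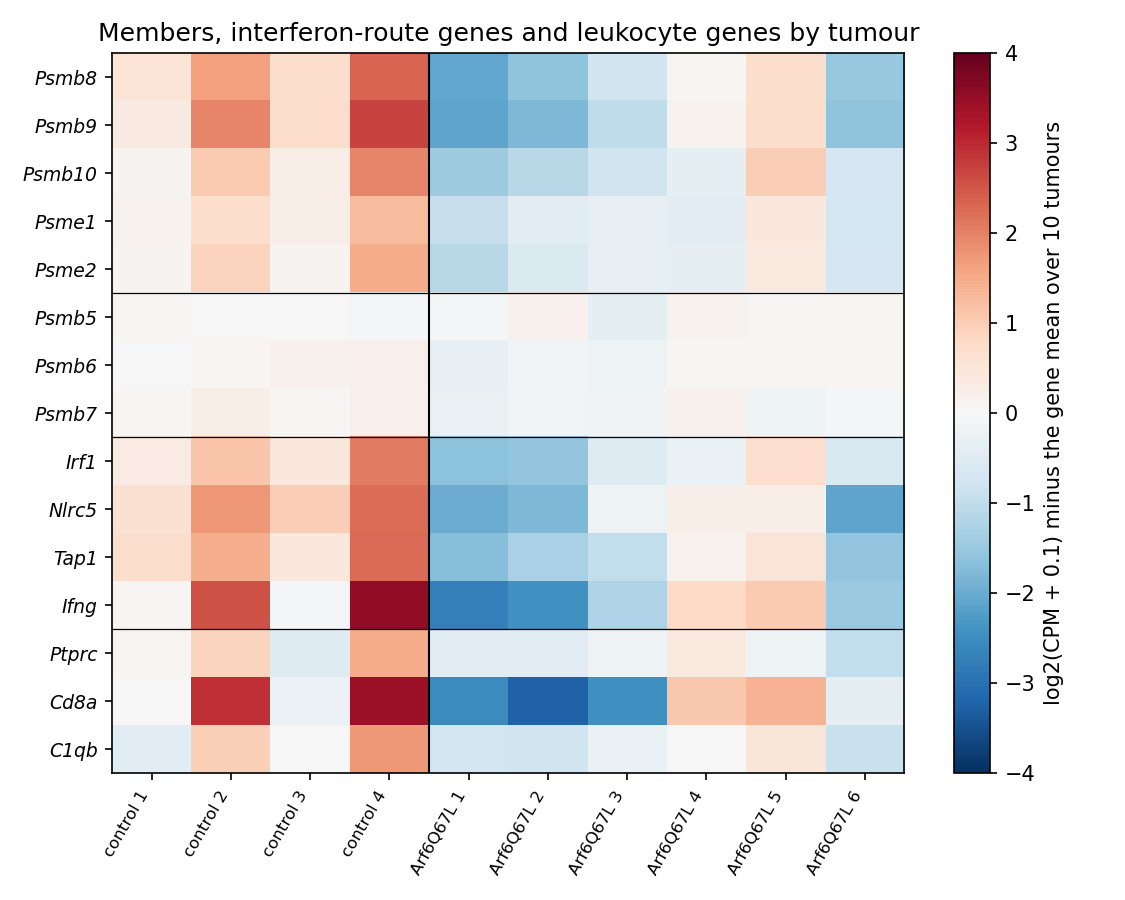
Heat map of log2(CPM + 0.1) minus each gene's mean over the 10 tumours, with controls 1 to 4 left and Arf6Q67L tumours 1 to 6 right of the vertical line, for the members, genes of the interferon and class I route and leukocyte genes. Controls 2 and 4 are highest and Arf6Q67L tumour 1 is lowest for Psmb8, Psmb9, Psmb10, Psme1 and Psme2, while the rows of Psmb5, Psmb6 and Psmb7 stay near 0.

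Genes whose pattern was most like that of the members were looked for among 11990 genes, by Pearson's r of log2 CPM over the 10 tumours. With the mean of the 3 immunosubunits the values were among the highest for the interferon-inducible GTPase genes Tgtp2 (r = 0.995) and Ifi47 (r = 0.990) and for the peptide transporter genes Tap2 and Tap1 (both r = 0.987). Within the 6 Arf6Q67L tumours r for these 4 genes was between 0.973 and 0.985. With the mean of the 3 constitutive subunits the highest were Snrpd1 (r = 0.937), Ptrh2 (r = 0.928), Mrpl41 (r = 0.924), Grap (r = 0.917) and the 20S subunit gene Psma1 (r = 0.917). The constitutive mean covered only 0.36 log2 units, so its likeness rests on small differences.

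Position was a further feature that the choice of members did not use. Psmb8 and Psmb9 lie 9957 bases apart in the MHC class II region of chromosome 17, with Tap1 between them and Tap2 beyond Psmb8. The Psmb9 and Tap1 promoter windows share 275 bases, their starts are 226 bases apart on opposite strands, and the CCAAT match at -8 to -4 of Psmb9 is the one at -222 to -218 of Tap1. The log2 ratio of Psmb9 to Tap1 stayed between -1.62 and -0.63 over the 10 tumours.

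Within 25 kilobases of Psmb8 or Psmb9 lie 5 other tested genes, and 5 of 5 were lower at an unadjusted edgeR p under 0.05, against 7.05% of all genes. They are Tap1, Tap2 (-1.31, SE 0.35), the class II gene H2-DMb1 (-1.25, SE 0.55) and the non-coding genes Gm15821 (-1.23, SE 0.34) and Gm20496 (-1.97, SE 0.51), which shares exon bases with Psmb8. On the opposite strand, Gm15821 lies within the span of Tap2 and Gm20496 overlaps that span, so the 5 are not separate loci. Without controls 2 and 4 H2-DMb1 changed sign (0.25, SE 0.48), Tap2 was at -0.75 (SE 0.37), Gm15821 at -0.74 (SE 0.40) and Gm20496 at -1.62 (SE 0.62). The unadjusted edgeR p was then 0.0304 for Gm20496 and 0.0783 to 0.614 for the others, Tap1 included. Psme1 and Psme2 lie 5912 bases apart on chromosome 14, and of their 5 tested neighbours 3 were lower at that threshold, each other included, with Irf9 at -0.70 (SE 0.20) and Rnf31 at -0.29 (SE 0.12). Psmb10 had 1 such neighbour of 4, Ctrl at -1.15 (SE 0.41), while Lcat, Slc12a4 and Pskh1 were between -0.20 and 0.21. For Psmb5, Psmb6 and Psmb7, 0 of 5 neighbours in all had an unadjusted edgeR p under 0.05.

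Some members share exon bases with another gene on the opposite strand, and whether strand was used in counting is not given in the sources used here. Psmb9 shares 212 bases, 5.79% of its exons, with Tap1. Psmb8 shares 498 bases (14.7%) with the antisense gene Gm20496, whose highest level was 1.85 CPM. Psmb7 shares 405 bases (11.8%) with Nek6, a gene at 62.6 CPM on average and a log2 fold change of -0.11. If strand was not used, reads over those bases cannot be told apart between the genes. Copies could matter for Psme2, whose near-identical gene Psme2b held 93 to 619 counts per library against 2132 to 10401 for Psme2, and copies of Psmb5, Psmb6 and Psmb7 held at most 2 counts.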

How the data were processed

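Polyadenylated RNA of 6 Arf6Q67L and 4 control melanomas was read from 1 table of raw counts per gene, deposited by the authors with 1 column per library (0 columns of other samples). The submitters' processing notes name STAR 2.5.2b, featureCounts 1.5.1, DESeq2 1.18.0 and GRCm38 without their roles. RNA extraction (Qiagen RNeasy) and stranded mRNA library preparation (Illumina TruSeq) are per the labels' protocols. How strand and multiply mapped reads were handled is not given in the sources used here. Groups come from the genotype label. Tumours are numbered in accession order, which pairs none of them, and library numbers followed genotype, so the effects of genotype and library order cannot be told apart.

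Symbols (for 52403 of 52636 identifiers), coordinates and exon lengths were taken from GENCODE on GRCm38. Counts were tested in R 4.3.3 with edgeR 4.0.16: filterByExpr (minimum count 10), TMM factors, glmQLFit with the robust option and glmQLFTest on genotype, Benjamini-Hochberg adjustment over all 17286 genes kept, threshold 0.05. Each SE is the log2 fold change divided by the square root of its F statistic. Log2 CPM used a prior count of 2. The script was tested on simulated data. Alternatives were DESeq2 1.42.0, DESeq2 size factors, upper quartile factors, no filter, sex as a term, other prior counts and lengths, each tumour left out in turn and, added after seeing the data, controls 2 and 4 left out (for pathway genes and marker lists too), male tumours alone and principal transcript lengths.

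The members and gene lists were chosen with earlier results of these data known. Named are the members, Psmb11 and Psma8, the 2 genes of lowest unadjusted p in each proteasome, regulator or peptide route list, Irf1, Nlrc5, Tap1, Ifng and Ptprc, and the 5 genes most like each set among those of mean log2 CPM of at least 1, without members, predicted genes and pseudogenes. A gene that this rule also names is not reported here and was taken out of its list. Marker genes, copies, overlapping genes and neighbours named besides were chosen after their values were seen, as were Nfe2l1, Nfe2l2 and Psmf1. Limits set by a count of 0 reflect counting error alone, because reads lack molecular identifiers and several can stem from 1 molecule.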

Additional observations from a re-analysis of the deposited data

Results flagged for a closer look

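A set of 3 values of Arf6Q67L tumour 5 lay far from the other 5 tumours of their group, by a gap to the nearest tumour over the group's range above Dixon's 95% critical value. They were its Psmb10 level of 95.7 CPM (gap 0.755 of the range), its Psme1 level of 177.4 CPM (0.669) and its Psmb10 to Psmb7 log2 ratio of 0.64 (0.746). Of 22 groups of values examined 3 were picked out this way, where chance picks about 1 in 20. The 3 values are not independent, since they come from 1 tumour and Psmb10 enters 2 of them. The Psmb8 and Psmb9 levels of this tumour, 102 and 47.3 CPM, were the highest of the group too without passing that limit.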

How the results depend on the processing

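Precision is limited by the spread between 6 and 4 tumours more than by depth, since every member had at least 248 counts in every library. For the 7 members other than Psmb5 the direction held under all 17 alternatives, and adjusted p crossed 0.05 only with DESeq2, for Psmb8, Psmb9, Psme1 and Psme2. The Psmb5 log2 fold change, 0.02, was -0.011 without controls 2 and 4 and ran from -0.0114 to 0.0962 when single tumours were left out. The number of genes past the threshold was 0 in each direction with edgeR, 167 higher and 246 lower with DESeq2, 2 higher in male tumours alone, 1 lower without controls 2 and 4, and 0 to 1 higher when single tumours were left out (1 without control 1).

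Other prior counts moved no pair across the threshold. The Psmb8 to Psmb5 difference was -1.47 without controls 2 and 4 (exact permutation p = 0.179) and -2.49 in male tumours (p = 0.1, the smallest exact value there), and the Psmb9 to Psmb6 difference was -1.31 (p = 0.214) and -2.56 (p = 0.2). Exact p-values with tumours left out were not adjusted over the pairs. With single tumours left out the Psmb9 to Psmb6 difference ran from -2.52 to -1.79 and the Psmb10 to Psmb7 difference from -1.51 to -0.83. Fewer tumours raise the smallest possible p, and beyond that the cause of these moves was not tested. No paired analysis was possible because the tumours' numbers follow accession order and the labels share none across groups.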
